A study of Mus musculus with 4 samples.

Results

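The genes described here are 10 products of mast cells, basophils and eosinophils, the granulocytes of allergy and parasite defence. They were taken by symbol from the deposited table: Prss34, Cpa3, Mcpt8, Tpsb2 and Tpsab1 (proteases), Ms4a2 and Fcer1a (chains of the IgE receptor), Hdc (histamine synthesis) and Prg2 and Epx (eosinophil granule proteins). All 10 were among the 23240 gene rows. RNA was sequenced from bone marrow cells of leukaemic mice that the labels call RUNX1-FLT3ITD_AML, an acute myeloid leukaemia named for RUNX1 and for an internal tandem duplication of the FLT3 receptor. All 4 libraries came from B6 mice and from GFP+BFP+CD11b-Gr1- cells, kept for 22 h in SFEM medium with FLT3L, SCF, IL3 and IL11. One arm received 200 nM 4OHT (4-hydroxytamoxifen) and the other the same volume of its solvent EtOH (ethanol). Each arm held 2 libraries, replicate 1 of genotype Runx1-delta/delta and replicate 2 of genotype Runx1-delta/+, so the genotype and the replicate number cannot be told apart. The labels do not say which protein 4OHT acts on, how the delta alleles of Runx1 were made, or how old the mice were. They also do not say whether the EtOH and 4OHT libraries of a genotype came from the same mouse.

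Mast cells and basophils store histamine and serine proteases in granules and carry the high-affinity IgE receptor, whose crosslinking releases them. The receptor is built from an alpha chain that binds IgE (Fcer1a), a beta chain that amplifies the signal (Ms4a2) and a shared gamma chain (Fcer1g). Prss34 and Mcpt8 encode the mouse basophil proteases mMCP-11 and mMCP-8, Cpa3 encodes the mast cell carboxypeptidase, and Tpsb2 and Tpsab1 encode the tryptases mMCP-6 and mMCP-7. Hdc makes histamine from histidine, Prg2 encodes major basic protein and Epx eosinophil peroxidase. GATA factors, KIT and IL-3 are known regulators of these lineages.

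Values are RPKM, reads per kilobase of gene and per M mapped reads. Depth, recovered from the steps between low values, was 33.7 to 39.4 M reads, so that 1 read in a gene of 1 kb was worth 0.0254 to 0.0297 RPKM. The Runx1-delta/delta 4OHT library stood apart: it held 16105 genes above 0 against 13451 to 13791 in the others, and 3698 genes above 0 and up to 0.05 RPKM against 1382 to 1926. It was also the library with the highest value of 8 members, and its part in the results was not tested beyond the fits without it given below.

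The basophil and mast cell proteases Prss34 and Cpa3 and the IgE receptor beta chain Ms4a2 rose with 4OHT in both genotypes. Fcer1a was higher with 4OHT in Runx1-delta/delta cells and lower in Runx1-delta/+ cells. Hdc, the most abundant member, was lower with 4OHT in both genotypes without passing the test, and Mcpt8 was lower with 4OHT in Runx1-delta/+ cells. Of the 6 members with a mean of at least 1 RPKM, 3 rose and 0 fell (limma, adjusted p under 0.05), and 1 was lower at an unadjusted p under 0.05, as were 14.3% of all tested genes. Over all 9595 genes tested at that mean, 22.2% rose (2130 genes) and 10.2% fell (983 genes), 32.4% in all. Both 4OHT libraries lay above both EtOH libraries for 3 of the 6 members and for 38.4% of tested genes. Rescaling libraries by median ratios gave 1441 rises and 1666 falls over all genes, so that 46.4% of calls were rises against 68.4%; the 3 members rose under it too and Hdc fell. The median log2 difference was 1.72 over the 6 members and 0.16 over all tested genes. The median of 1.72, the 3 rises and the 3 members without overlap include Ms4a2. It reached the mean of 1 RPKM only through its 4OHT libraries (EtOH mean 0.973 RPKM). That median leaves out the 4 members under the mean of 1 RPKM. In a fit with no minimum mean these differed by -0.05 (Tpsab1), -0.02 (Tpsb2), 0.05 (Epx) and 0.2 (Prg2). The median over all genes was 0.02 in that fit.

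**Figure D1:**
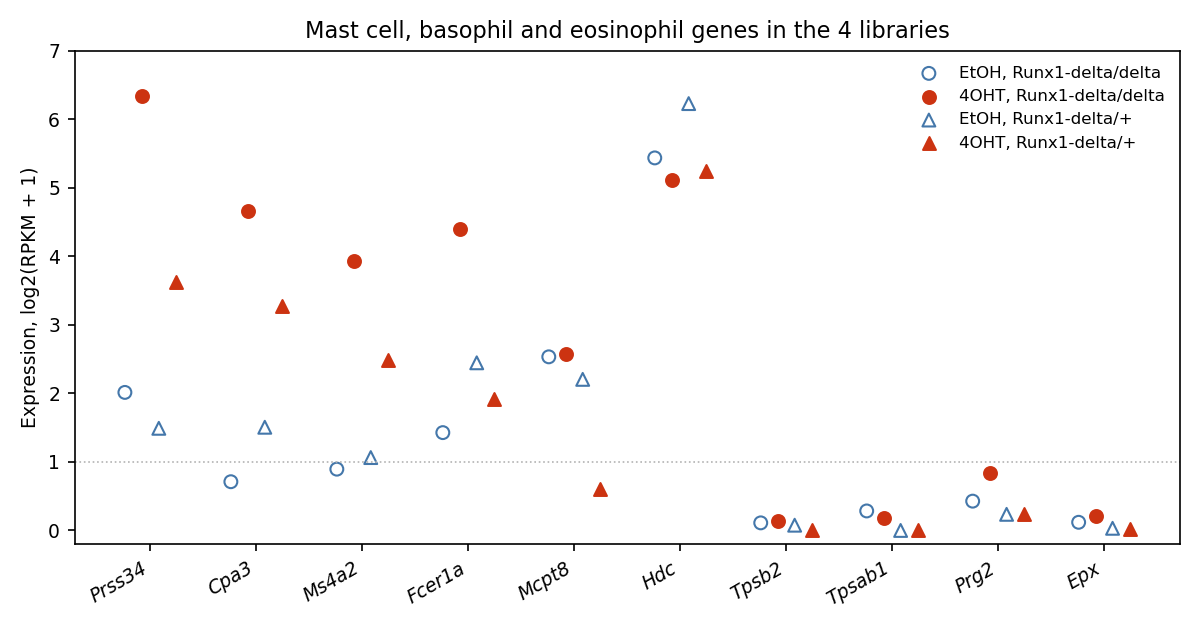
Level of each member in each library, as log2(RPKM + 1) on the vertical axis; circles are Runx1-delta/delta, triangles Runx1-delta/+, open symbols EtOH, filled symbols 4OHT, and the dotted line marks 1 RPKM. Prss34, Cpa3 and Ms4a2 have both 4OHT libraries above both EtOH libraries, Hdc has both below, and Tpsb2, Tpsab1, Prg2 and Epx lie under the line in every library.

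Among the member proteases, Prss34 had the largest rise on the log2(RPKM + 1) scale, while the fold in Runx1-delta/delta cells was larger for Cpa3. Its RPKM was 3.04 in EtOH and 79.6 in 4OHT for Runx1-delta/delta, and 1.81 in EtOH and 11.3 in 4OHT for Runx1-delta/+. Both 4OHT libraries lay above both EtOH libraries, and the Runx1-delta/delta 4OHT library far above all others. The reads behind these values were 128, 3554, 74 and 542, giving 26.1-fold (95% counting interval 21.9 to 31.4) in Runx1-delta/delta cells and 6.27-fold (4.91 to 8.1) in Runx1-delta/+ cells. These intervals are exact (Clopper-Pearson on the share of reads) and cover counting error only. On the scale of log2(RPKM + 1), which understates changes of low genes, the rise was 3.23 (SE 0.49, adjusted p by limma = 0.00956).

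Cpa3, the carboxypeptidase, had 0.637 and 24.2 RPKM in EtOH and 4OHT for Runx1-delta/delta, and 1.84 and 8.66 for Runx1-delta/+. The 2 treatments did not overlap, and the order of the genotypes differed between them: Runx1-delta/+ was higher in EtOH and Runx1-delta/delta in 4OHT. The log2 rise was 2.85 (SE 0.49, adjusted p by limma = 0.0128), from 37.9-fold (26.7 to 55.7) in Runx1-delta/delta cells and 4.71-fold (3.76 to 5.97) in Runx1-delta/+.

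Mcpt8, the basophil protease mMCP-8, did not follow Prss34. It had 4.79 RPKM in EtOH and 4.93 in 4OHT for Runx1-delta/delta, and 3.61 in EtOH and 0.514 in 4OHT for Runx1-delta/+. The 2 Runx1-delta/delta libraries differed by no more than counting error (1.03-fold, 0.813 to 1.31). In the Runx1-delta/+ cells the level was 7.01-fold lower with 4OHT, on 102 and 17 reads (ratio of 4OHT to EtOH 0.143, 0.0799 to 0.24). The log2 difference over both genotypes was -0.79 (SE 0.39, adjusted p by limma = 0.175, 95% interval -1.76 to 0.19).

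The tryptases were near the detection limit. Tpsb2 had 3, 4, 2 and 0 reads and Tpsab1 15, 10, 0 and 0 reads, in the order Runx1-delta/delta EtOH, Runx1-delta/delta 4OHT, Runx1-delta/+ EtOH, Runx1-delta/+ 4OHT. A count of 0 allows up to 3 reads per library. Both stayed under 0.22 RPKM in every library, neither was tested, and no change was detectable at this depth. Tpsab1 is listed by RefSeq as a transcribed pseudogene in the C57BL/6 reference, and reads of these closely related neighbours could have been split between them.

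The IgE receptor chains differed from each other. Ms4a2 had 0.859 and 14.2 RPKM in EtOH and 4OHT for Runx1-delta/delta, and 1.09 and 4.6 for Runx1-delta/+. Its log2 rise was 2.23 (SE 0.38, adjusted p by limma = 0.0126), with 16.5-fold (11.4 to 24.7) and 4.23-fold (2.96 to 6.2) in the genotypes. Its EtOH mean of 0.973 RPKM means that it entered the tested genes through the 4OHT libraries. Without the filter the call was kept (adjusted p = 0.0438).

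Fcer1a, the chain that binds IgE, had 1.69 and 20.1 RPKM in EtOH and 4OHT for Runx1-delta/delta, and 4.45 and 2.79 for Runx1-delta/+. The treatments overlapped, and the Runx1-delta/delta 4OHT library was the one high value. The 2 genotypes had opposite signs, as for 18.7% of all tested genes: 11.9-fold higher with 4OHT (9.13 to 15.7) in Runx1-delta/delta cells and 1.59-fold lower in Runx1-delta/+ cells (ratio 0.628, 0.488 to 0.805). The log2 difference was 1.22 (SE 0.77, adjusted p by limma = 0.269, 95% interval -0.71 to 3.16). Without the Runx1-delta/delta 4OHT library it was -0.01 (adjusted p = 0.992), and without the Runx1-delta/+ 4OHT library, where the level was lower, 2.46 (adjusted p = 0.041). Both of these fits have 1 library in the 4OHT arm and no genotype term, and assume that it varies like the EtOH libraries.

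The gamma chain Fcer1g, no member of the 10, had 6.81 and 45.7 RPKM in the Runx1-delta/delta pair and 10.5 and 26.6 in the Runx1-delta/+ pair. It rose by 1.92 on the log2 scale (SE 0.31, adjusted p by limma = 0.0114), so that 2 of the 3 receptor chains passed the test.

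The promoters of the 3 risen members and of Fcer1a are shown because GATA factors are known to regulate these lineages and the genotypes are named for Runx1. Runx1 RNA was present in both genotypes (levels are given with the transcription factors below). GATAA is the core of GATA sites and TGTGGT that of RUNX sites. Each is the 250 bases before the RefSeq start of the gene (GRCm38.p6, strand of the gene, 5′ to 3′), with the letters of both motifs in capitals, on either strand.
Prss34: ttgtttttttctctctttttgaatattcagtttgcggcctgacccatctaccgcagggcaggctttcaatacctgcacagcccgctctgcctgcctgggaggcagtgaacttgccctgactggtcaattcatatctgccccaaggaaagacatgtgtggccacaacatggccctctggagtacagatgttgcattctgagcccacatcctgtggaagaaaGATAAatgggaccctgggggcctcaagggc
Cpa3: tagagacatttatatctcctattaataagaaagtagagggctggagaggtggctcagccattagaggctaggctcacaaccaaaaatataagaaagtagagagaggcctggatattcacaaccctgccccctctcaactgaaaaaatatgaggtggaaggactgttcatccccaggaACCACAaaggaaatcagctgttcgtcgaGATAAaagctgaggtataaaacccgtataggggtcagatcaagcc
Ms4a2: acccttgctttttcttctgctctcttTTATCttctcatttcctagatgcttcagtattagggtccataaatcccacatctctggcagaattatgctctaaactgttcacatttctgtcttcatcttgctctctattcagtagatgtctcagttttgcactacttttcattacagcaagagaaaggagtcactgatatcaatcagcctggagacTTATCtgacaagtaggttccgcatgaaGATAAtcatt
Fcer1a: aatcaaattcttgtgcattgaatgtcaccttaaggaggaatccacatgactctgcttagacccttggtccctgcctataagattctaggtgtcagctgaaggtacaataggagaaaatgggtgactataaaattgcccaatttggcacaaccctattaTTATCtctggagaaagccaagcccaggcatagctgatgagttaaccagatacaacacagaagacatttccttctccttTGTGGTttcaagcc
These windows are chr17:25298144-25298393 (plus strand), chr3:20242182-20242431, chr19:11623720-11623969 and chr1:173227230-173227479 (all minus strand). GATAA lies 26 bases before the start in Prss34, 41 in Cpa3, 88 in Fcer1a, and 6, 33 and 220 in Ms4a2. TGTGGT lies 68 bases before the start in Cpa3 and 9 in Fcer1a. Promoter sequences matched 7 of the 10 members, and the windows of Mcpt8, Hdc and Epx held no match to GATAA on either strand. That motif was thus in 4 of 7 member windows and in 22.6% of 32851 windows of all genes, and TGTGGT in 3 of 7 and in 14.0%. No match of one motif overlapped a match of the other in the windows shown, and a match describes the sequence only.

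Hdc, the histamine enzyme, was the member with the highest EtOH level in both genotypes. It had 42.3 and 33.7 RPKM in EtOH and 4OHT for Runx1-delta/delta, and 74.0 and 37.0 for Runx1-delta/+. Both 4OHT libraries lay below both EtOH libraries, as for 16.9% of all tested genes. With 2947 to 5932 reads per library, counting error was small: the levels were 1.25-fold lower (ratio 0.797, 0.759 to 0.837) and 2.0-fold lower (0.5, 0.48 to 0.522). The log2 difference of -0.65 (SE 0.19) missed the threshold with limma at an adjusted p = 0.054 and passed it after median-ratio scaling, at -0.87 (adjusted p = 0.00786).

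The eosinophil granule genes were low throughout. Prg2 had 10, 24, 5 and 6 reads, or 0.345, 0.78, 0.177 and 0.182 RPKM, in Runx1-delta/delta EtOH and 4OHT and then in the Runx1-delta/+ pair. Its ratio of 4OHT to EtOH was 2.26 (1.04 to 5.3) in Runx1-delta/delta cells and 1.03 (0.261 to 4.25) in Runx1-delta/+. Epx had 8, 16, 2 and 2 reads, with a ratio in Runx1-delta/delta of 1.88 (0.761 to 5.08). Both were under the mean of 1 RPKM and were not tested. The member nearest above that mean was Mcpt8 at 3.46 RPKM and the nearest below was Prg2 at 0.371.

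RPKM is scaled for gene length, so the order of levels within a library could be compared. In EtOH, Hdc was first in both genotypes, followed by Mcpt8, Prss34 and Fcer1a in Runx1-delta/delta and by Fcer1a, Mcpt8, Cpa3 and Prss34 in Runx1-delta/+. With 4OHT, Prss34 moved to first place in Runx1-delta/delta at 79.6 RPKM, above Hdc at 33.7, while in Runx1-delta/+ it was second at 11.3, under Hdc at 37.0. Neighbours in the order changed places between the genotypes, and with 1 library per genotype and treatment no such pair can be called different. In bulk RNA, fewer cells of a type and less RNA per cell cannot be told apart.

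**Figure D2:**
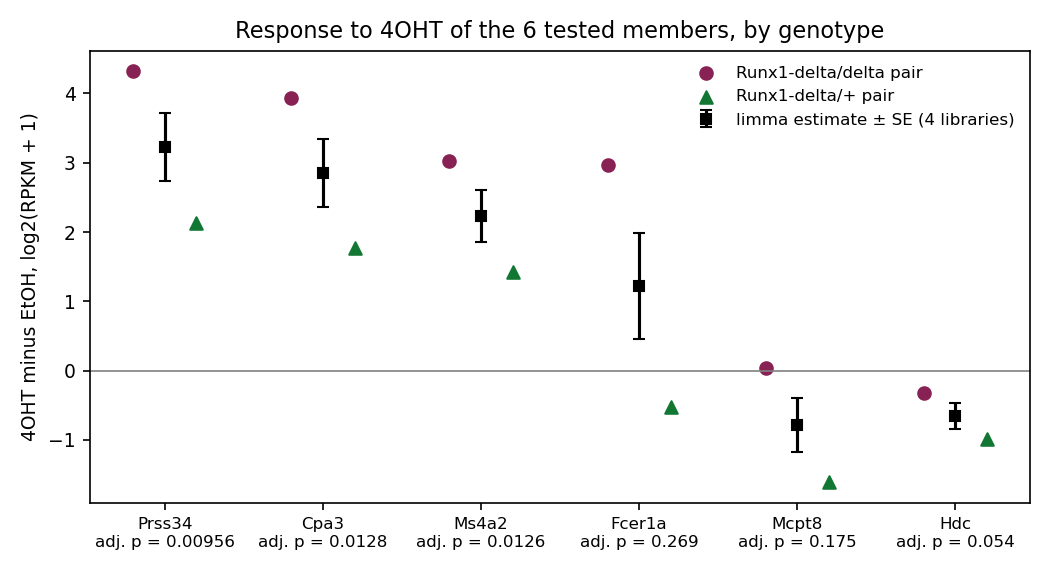
Difference between 4OHT and EtOH on the log2(RPKM + 1) scale for each of the 6 tested members, in Runx1-delta/delta cells and in Runx1-delta/+ cells, with 1 library per treatment in each; black squares are the limma estimates with their SE over all 4 libraries. The difference is larger in Runx1-delta/delta for Prss34 (4.32 and 2.13), Cpa3 (3.94 and 1.77) and Ms4a2 (3.03 and 1.42), and opposite in sign for Fcer1a (2.97 and -0.52).

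The genotypes were then set side by side. The median log2 difference with 4OHT over the 6 tested members was 3.0 in Runx1-delta/delta cells and 0.45 in Runx1-delta/+, against 0.17 and 0.15 over all tested genes. The difference was higher (or less negative) in Runx1-delta/delta for the 6 members. How many of all tested genes share that order was not counted, so it is not shown to be particular to the members. Ms4a2, which entered the tested genes through its 4OHT libraries, is among the 6. Whether the response itself differs by genotype cannot be tested, because each genotype has 1 library per treatment.

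Averaged over both treatments, 0 of the 6 members differed between genotypes (limma, adjusted p under 0.05), while 6.91% of all tested genes were higher in Runx1-delta/+ (663 genes) and 4.68% lower (449 genes). At an unadjusted p under 0.05, 2 members were lower in Runx1-delta/+, as were 14.0% of all tested genes. These were Prss34, by -1.62 on the log2 scale (SE 0.49, adjusted p by limma = 0.0908), and Mcpt8, by -1.15 (SE 0.39, adjusted p = 0.112). For Mcpt8, both Runx1-delta/delta libraries lay above both Runx1-delta/+ libraries, as for 17.0% of tested genes. After median-ratio scaling Prss34 and Mcpt8 both passed, at -1.69 (adjusted p = 0.0289) and -1.19 (adjusted p = 0.0408). The 4 members under the mean of 1 RPKM were also higher in both Runx1-delta/delta libraries, at 24 reads or fewer per library. In the limma fit with no minimum mean, 4 of the 10 members were lower in Runx1-delta/+ at an unadjusted p under 0.05. That held for 9.42% of all 17213 genes. At an adjusted p under 0.05 the number of members was 0.

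In the authors' deposited table, made with Kal's Z-test between single libraries, 4 members were higher with 4OHT in Runx1-delta/delta at an FDR under 0.05, as were 2.72% of all genes, and 0 were lower, as were 1.26%. The authors' deposited table lists folds there of 27.9 for Prss34, 40.4 for Cpa3, 17.6 for Ms4a2 and 12.7 for Fcer1a. In Runx1-delta/+ its only member past that threshold was Hdc, with a fold listed as -1.93 (FDR 0.0463), where 0.964% of genes were lower and 0.951% higher. For Prss34 and Cpa3 the authors' deposited table lists 6.49 (FDR 0.23) and 4.88 (FDR 0.644) in that genotype. These tests compare libraries, not conditions.

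The other genes of these cells were taken from 8 lists of 122 genes (117 in the table, 77 tested). Of the 77, 35 rose (45.5%) and 13 fell (16.9%), with a median log2 difference of 0.53. Over all tested genes 22.2% rose and 10.2% fell, with a median of 0.16. These are also the shares to set beside the counts of each single list below. The lists were chosen with earlier results of these data known.

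**Figure D3:**
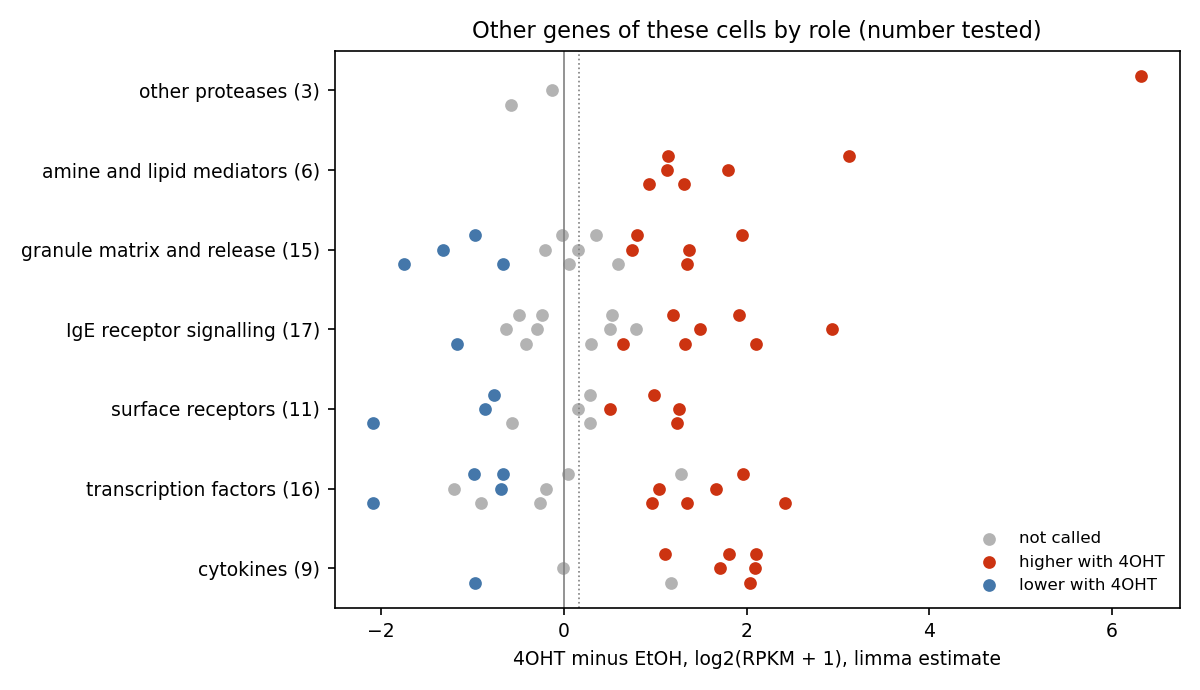
Difference between 4OHT and EtOH, log2(RPKM + 1), of each tested gene in the lists of other mast cell, basophil and eosinophil genes, by list with the number tested (Fcer1g is among those of IgE receptor signalling); red (higher) and blue (lower) points passed the limma test at an adjusted p of 0.05, grey points did not, and the dotted line is the median over all tested genes, 0.16. All 6 tested mediator genes rose, whereas the transcription factors and the granule genes lie on both sides of 0.

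The enzymes and transporters of amine and lipid mediators were the list in which each of the 6 tested genes rose, with a median of 1.22. Slc18a2, the vesicular transporter that loads histamine and serotonin into granules, had 1.7 RPKM in EtOH and 29.8 in 4OHT for Runx1-delta/delta, and 6.25 and 47.1 for Runx1-delta/+. Its log2 rise was 3.12 (SE 0.22, adjusted p by limma = 0.0023), in contrast to Hdc, which makes the cargo. Tph1, the first enzyme of serotonin synthesis, rose by 1.13 (adjusted p = 0.00532), Ltc4s, leukotriene C4 synthase, by 1.31 (0.00631) and Pla2g4a, the phospholipase that frees arachidonic acid, by 0.93 (0.0109). Alox5 and Alox5ap, which start leukotriene synthesis, rose too, Alox5ap from 31.6 to 193 and from 52.3 to 105 RPKM.

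Of the other proteases, 3 of 9 in the table were tested and 1 rose. This was Gzmb, granzyme B, which cytotoxic lymphocytes share, with 0.204 and 259 RPKM in EtOH and 4OHT for Runx1-delta/delta cells and 17.0 and 536 for Runx1-delta/+. Its log2 rise was 6.32 (SE 0.63, adjusted p by limma = 0.00425). The chymase Cma1 differed by -0.58 (adjusted p = 0.155) and cathepsin G (Ctsg) by -0.13 (adjusted p = 0.75). Cma1 and Ctsg each had their lowest value in the Runx1-delta/+ 4OHT library.

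Of 15 genes for the granule matrix and granule release, 5 rose and 4 fell, with a median of 0.15. Cd63, a granule membrane protein used to detect degranulation, rose by 1.95 (SE 0.31, adjusted p by limma = 0.0103), from 30.6 to 191 and from 67.6 to 168 RPKM. The fusion genes Stx3 and Rab27a rose by 1.37 and 1.35 (adjusted p = 0.00676 and 0.0074). Stx3 had an EtOH mean of 0.565 RPKM and, like Ms4a2, entered the tested genes through the 4OHT libraries. The fusion gene Snap23 fell by 0.97, from 38.6 to 19.0 and from 62.6 to 31.8 RPKM (adjusted p = 0.00746). Srgn, the core protein of the granule proteoglycan, differed by 0.05 (adjusted p = 0.904).

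Downstream of the IgE receptor, with Fcer1g left out, 6 of 16 tested genes rose and 1 fell, with a median of 0.51 (5 rises and 4 falls after median-ratio scaling). The adaptor Gab2 rose by 2.1 (SE 0.2, adjusted p by limma = 0.00391) and the kinase Fyn by 1.33 (adjusted p = 0.00511). The kinase Btk fell by 1.17 (adjusted p = 0.0189). The kinase Lyn, which starts the cascade, differed by -0.24 (adjusted p = 0.249), and Syk was under the mean for testing.

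Among surface receptors, 4 of 11 tested genes rose and 3 fell, with a median of 0.28. The IL-3 receptor chains parted: Il3ra, the alpha chain, rose by 1.24 (adjusted p by limma = 0.0068), while Csf2rb2, the mouse IL-3 beta chain, fell by 2.09 (adjusted p = 0.00291), from 192 to 37.2 and from 184 to 50.8 RPKM. The common beta chain Csf2rb fell by 0.77 (adjusted p = 0.0258). Il1rl1, the IL-33 receptor, rose by 0.5 (adjusted p = 0.0429). Cd200r3, a basophil and mast cell receptor, had 2.29 and 3.24 RPKM in Runx1-delta/delta cells and 4.49 and 0.931 in Runx1-delta/+, and did not pass.

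Kit, the SCF receptor that defines mast cells, was low: 0.0781 and 1.61 RPKM in Runx1-delta/delta EtOH and 4OHT, and 0.0973 and 0.74 in the Runx1-delta/+ pair. The reads were 14, 306, 17 and 151. Its mean was under 1 RPKM, so it was not among the tested genes. In a fit with no filter it rose by 0.97 on the log2(RPKM + 1) scale (SE 0.16, adjusted p by limma = 0.034), where 8.6% of 17213 genes rose.

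Of 16 lineage transcription factors tested, 6 rose and 4 fell, with a median of -0.08. Hes1, a target of Notch signalling, rose by 2.42 (adjusted p by limma = 0.00223), Ikzf1 by 1.66 (0.00506) and Cebpa, a factor of granulocyte fate, by 1.96 (0.00704), from 1.08 to 10.3 and from 1.1 to 4.84 RPKM. Zfpm1, the GATA cofactor FOG1, fell by 2.09 (adjusted p = 0.00245), from 215 to 43.8 and from 127 to 33.3 RPKM. Gata1 fell by 0.69 (adjusted p = 0.0212). Runx1 had 568 and 380 RPKM in EtOH and 4OHT for Runx1-delta/delta, and 555 and 328 for Runx1-delta/+. It fell by 0.67 with 4OHT (adjusted p by limma = 0.0129). Between the genotypes it differed by -0.12 (Runx1-delta/+ minus Runx1-delta/delta, 95% interval -0.41 to 0.17, adjusted p by limma = 0.491) and did not pass. RPKM per gene cannot tell transcripts of the delta alleles from other Runx1 transcripts. Gata2, a factor needed for mast cells and basophils, had 180 and 145 RPKM in Runx1-delta/delta cells and 182 and 63.5 in Runx1-delta/+, and its difference of -0.91 (SE 0.29) did not pass (adjusted p = 0.0619). Mitf stayed between 0.168 and 0.373 RPKM and was not tested.

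Of 9 effector cytokines and chemokines tested, 6 rose and 1 fell, with a median of 1.71. Il6 rose by 1.81 (adjusted p by limma = 0.00288), Lif by 2.09 (0.0032) and Tnf by 1.71 (0.00355). Ccl3, a macrophage chemoattractant, went from 2.42 to 26.2 and from 2.4 to 6.91 RPKM, a rise of 2.1 (adjusted p = 0.017). Il4, the hallmark cytokine of basophils, fell by 0.97 (adjusted p = 0.0143), from 5.59 to 2.81 and from 3.91 to 1.2 RPKM. Il13 had 1.34 and 3.16 RPKM in Runx1-delta/delta cells and 3.0 and 1.22 in Runx1-delta/+ and did not pass. Of the 7 other eosinophil granule genes none reached the mean for testing: 3 were at 0 in all libraries and the highest value was 0.178 RPKM, for Ear6.

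The genes whose profiles over the 4 libraries lay nearest to each risen member were found by the Euclidean distance between centred log2(RPKM + 1) values, over all tested genes. Nearest to Prss34 were Tcf15 (distance 1.2), Tarm1 (1.28) and Fut7 (1.32). Nearest to Cpa3 were Car7 (0.27), Ifitm1 (0.31) and Adam8 (0.43), and nearest to Ms4a2 were Tarm1 (0.17), Ccl3 (0.3) and Csrp3 (0.32). Tarm1 had 1.42 and 21.1 RPKM in Runx1-delta/delta cells and 1.61 and 6.76 in Runx1-delta/+. No tested gene lay nearer to Prss34 than 1.2. Fut7, Car7 and Csrp3 had EtOH means of 0.0601, 0.566 and 0.213 RPKM and, like Ms4a2, entered the tested genes through the 4OHT libraries. With 4 libraries such distances are a description only.

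Markers of other cells of the marrow were summed in the same libraries, in the order Runx1-delta/delta EtOH, Runx1-delta/delta 4OHT, Runx1-delta/+ EtOH, Runx1-delta/+ 4OHT. The 10 members summed to 54.1, 178, 87.0 and 65.1 RPKM. Red cell markers were the most abundant and summed to 27900, 3270, 13700 and 2060 RPKM, and 12 of 13 tested fell while 0 rose. Hbb-b1, a beta globin, fell by 3.93 on the log2 scale (adjusted p by limma = 0.00176). Of 7 tested megakaryocyte markers, 5 fell and 1 rose, and their sums were 184, 109, 225 and 88.2. Over all tested genes 10.2% fell and 22.2% rose. Neutrophil markers summed to 48.0, 54.1, 19.5 and 21.2 RPKM, S100a8 differing by -0.02 (adjusted p = 0.906), and monocyte markers summed to 11.7, 19.5, 7.58 and 9.2. Dendritic cell markers summed to 14.7, 19.8, 53.5 and 44.9 RPKM, with Siglech and Xcr1 at 0 in all libraries. Most of that sum was a single gene, Flt3, at 12.6, 16.8, 46.3 and 39.7 RPKM, so it does not measure dendritic cells.

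T and NK cell markers summed to 2.75, 7.36, 0.955 and 3.76 RPKM. Cd3e, which defines T cells, was at 0 in all 4 libraries, and Nkg7, a cytotoxic granule gene, rose by 2.05 (adjusted p by limma = 0.0101). Nkg7 had an EtOH mean of 0.271 RPKM and entered the tested genes through the 4OHT libraries. Of 6 B cell markers, 4 were at 0 in all libraries, and the sum stayed between 0.137 and 0.287 RPKM. Stromal and endothelial markers summed to 2.26, 3.65, 8.14 and 12.1 RPKM, with Cdh5 at 0 throughout. Nearly all of that sum was a single gene in every library, Pecam1, which platelets share. It had 2.14 RPKM in Runx1-delta/delta EtOH and 8.11 in Runx1-delta/+ EtOH, so the sum does not measure stromal cells. Itgam, which encodes the CD11b used for the sort, was between 0.168 and 0.358 RPKM. The sums of members were highest in the Runx1-delta/delta 4OHT library, which also had the highest sums of neutrophil, monocyte and T and NK markers. Their part in the members' values was not tested. The kit used for library preparation is given as either of 2 without naming the libraries, so a kit difference cannot be told apart from the groups.

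**Figure D4:**
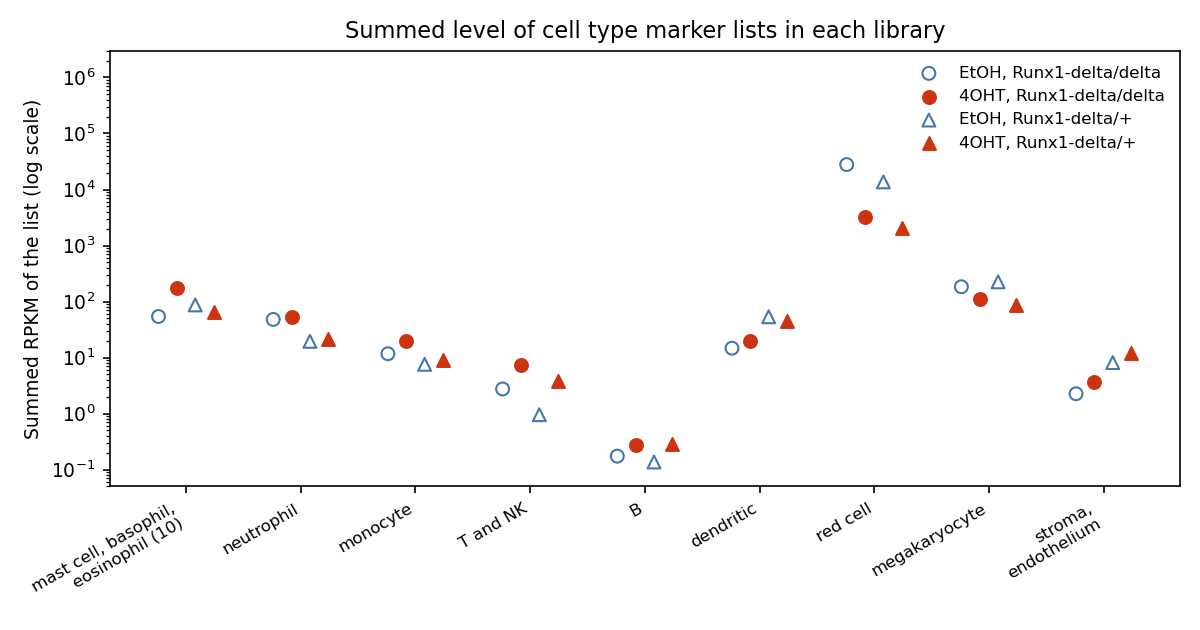
Summed RPKM of the members and of marker lists of other cell types in each library, on a log10 axis. Symbols are as in the plot of members by library. Red cell markers are highest and lower in both 4OHT libraries, B cell markers are lowest, and the members are highest in the Runx1-delta/delta 4OHT library (178 RPKM).

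Each result above rests on 2 libraries per arm. With all 4 libraries and no genotype term, none of the 3 rises among members passed (each had an unadjusted p under 0.05): the adjusted p-values (limma) were 0.103 for Prss34, 0.0599 for Cpa3 and 0.0765 for Ms4a2. Without the Runx1-delta/delta 4OHT library, and without a genotype term, the rises were 1.87, 2.16 and 1.51 on the log2 scale, with adjusted p-values of 0.0653, 0.0652 and 0.118. Of the fits with 1 library left out, the one without the Runx1-delta/+ 4OHT library called all 3. The count of rises in the other lists went from 35 to 7 without the genotype term.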

How the data were processed

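RNA sequencing values came from 4 mouse libraries, each with 1 treatment and 1 genotype. Per the file headers, the authors deposited RPKM per gene and library, a signed fold of proportions and from Kal's Z-test a p-value and its FDR correction, 1 library against 1 for each replicate number. The submitters' processing notes name the build mm 9. Not given in the sources used here are the aligner, counter, annotation and strand use.

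Members and gene lists were chosen with earlier results of these data known. Genes were named by a rule: all members, Kit, Fcer1g and Gata2, up to 4 genes of each list with the smallest p, the most abundant gene of each other-cell list, and the 3 nearest profiles of each risen member. Further genes named (such as Alox5, Btk, Lyn, Gata1, Cd200r3 and Il13) were chosen after their values were seen.

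limma 3.58.1 (R 4.3.3) was fitted to log2(RPKM + 1) of the 9595 genes whose mean reached 1 RPKM, with treatment and genotype as terms, a trended prior, a two-sided test per gene and adjustment by Benjamini-Hochberg at 0.05 over all tested genes. The fit was tried on simulated data with additive effects and independent noise drawn from its own prior. Those data held no difference in response between genotypes, so the trial cannot show how the fit handles one. Residual degrees of freedom were 1, with 4.37 from the prior. The genotype is also the replicate number, and the deviations of same-numbered libraries from their arm's mean correlated at 0.664 across genes. With these terms, the residual of each gene is the difference between the genotypes in their response to 4OHT, which is thus counted as error. The p-values measure this spread, pooled over genes by the prior, and not the spread between repeat libraries of a condition. The labels name no separate cultures, so the spread may also be technical.

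Reads per gene were recovered from the RPKM steps, with whole reads within 0.02 for 7120 of 7120 genes below 1 RPKM. The totals were the value shared by 77 of 295 single-transcript genes. Folds are given with 95% exact counting intervals. Promoters came from RefSeq (GRCm38.p6).

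Alternatives were a pseudocount of 0.1, no filter, a mean of at least 5 RPKM, median-ratio scaling, no trend, no genotype term and leaving out each library. Counts over the other lists and values of their named genes were added after the data were seen.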

Additional observations from a re-analysis of the deposited data

Results flagged for a closer look

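For the genes below, the log2(RPKM + 1) difference between 4OHT and EtOH had opposite signs in the 2 genotypes. The signs were also opposite for 17 of the 77 tested genes of the other lists and for 18.7% of all tested genes, and those not named in the text are not listed here. None of these differences was tested, because each genotype has 1 library per treatment. For Fcer1a, the IgE-binding chain, the difference was 2.97 in Runx1-delta/delta cells and -0.52 in Runx1-delta/+ cells (Runx1-delta/+ minus Runx1-delta/delta, -3.49). For Ctsg, cathepsin G, it was 0.37 and -0.63 (-1.0), and for Cd200r3, the basophil and mast cell receptor, 0.37 and -1.51 (-1.87). Il13 had 0.83 and -0.85 (-1.68) and Srgn, the granule proteoglycan core, 0.63 and -0.53 (-1.17).

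For other genes of these cells, the value in at least one genotype was within counting error or rested on few reads. Mcpt8, the basophil protease, had 0.04 and -1.61 (-1.64), where the first was within counting error. Tpsg1, the transmembrane tryptase, had 1.42 and -0.03 (-1.46), the second on 1 and 0 reads. Epx (-0.1), Tpsb2 (-0.1) and Ear6 (0.35) were low throughout.

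Among other genes named, Lck, a T cell kinase, differed by -1.13 in Runx1-delta/delta cells and 0.14 in Runx1-delta/+ (1.27), the second within counting error. Flt3, the receptor for FLT3L, differed by 0.39 and -0.22 (-0.6), Gyg, next to Cpa3, by 0.14 and -0.44 (-0.58), and H2-Ab1, an MHC class II chain, by 0.02 and -0.44 (-0.47), its first value within counting error.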

How the results depend on the processing

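A pseudocount of 0.1 and a prior without trend changed no count below by over 1.5 times. The fit with the genotype term, here called the replicate block, is the one reported. With no replicate block, rises among members went from 3 to 0 (3 at an unadjusted p under 0.05 in limma), rises over all genes from 2130 to 117, falls from 983 to 116, rises in the other lists from 35 to 7 and falls from 13 to 2. The genotype counts of 663 higher and 449 lower became 0 and 0 (545 and 335 unadjusted). With 1 library left out, and no genotype term, the ranges were 0 to 4 rises among members, 0 to 126 rises and 3 to 137 falls over all genes, and 0 to 14 rises and 0 to 4 falls in the other lists. The 4 rises among members, Fcer1a included, came without the Runx1-delta/+ 4OHT library; leaving out any of the other libraries gave 0 (3 unadjusted in each). After median-ratio scaling, which moved the median of all genes from 0.16 to -0.04, falls among members were 1 (Hdc), falls over all genes 1666, members lower in Runx1-delta/+ 2 and all genes lower there 984. Without the filter on low values the genotype counts were 0 higher and 0 lower (2284 and 1622 unadjusted), and falls in the other lists 7. At a mean of at least 5 RPKM, 336 genes were higher in Runx1-delta/+. Of the single genes, Pecam1, a platelet and endothelial marker that rose by 0.53 on the log2 scale, ranged from -0.24 (without the Runx1-delta/delta EtOH library) to 1.3, and was -0.23 without the Runx1-delta/+ 4OHT library. The cause of these changes was not tested, apart from the fewer samples in the fits with a library left out. Depth limits Tpsb2, Tpsab1, Prg2 and Epx, which had 24 reads or fewer per library.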

Other observations

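The genes that flank the members on the chromosome, 2 on each side in RefSeq's order, were looked at after the members' values had been seen. Prss34 lies on chromosome 17 among other tryptase-like genes. Next to it, Prss28 had 0.0, 0.458, 0.0 and 0.0853 RPKM (EtOH and 4OHT of Runx1-delta/delta, then of Runx1-delta/+). Tpsg1, a transmembrane tryptase that follows Tpsb2 in the same cluster, had 22, 138, 1 and 0 reads, so that its highest level was in the library where Prss34 was highest. It was under the mean for testing (0.909 RPKM).

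Beside Fcer1a on chromosome 1, Cadm3, a cell adhesion gene, had 0.605, 7.59, 1.36 and 4.26 RPKM and rose by 1.79 on the log2 scale (SE 0.32, limma adjusted p = 0.0135), in both genotypes, whereas Fcer1a was higher with 4OHT in 1 of the 2. Cadm3 had an EtOH mean of 0.98 RPKM and entered the tested genes through the 4OHT libraries. Beside Ms4a2 on chromosome 19, Ms4a3, a gene of the same family expressed in granulocyte progenitors, had 0.2, 0.942, 0.0879 and 0.351 RPKM, and Ms4a4d was at 0 in all libraries. Beside Cpa3 on chromosome 3, Gyg had 19.4, 21.5, 22.5 and 16.4 RPKM and the related pancreatic carboxypeptidase gene Cpb1 was under 0.04 in every library. Beside Prg2 on chromosome 2, Slc43a3 had 176.0, 58.5, 175.0 and 71.1 RPKM.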
